A study of Mus musculus with 6 samples.

Results

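The mRNAs of the cytosolic ribosomal proteins were followed in growth plate cartilage with and without a chondrocyte deletion of Hnrnpk. Members were the rows marked as known genes whose symbol was Rpl or Rps followed by a number, with an optional a or x, together with Rplp0, Rplp1, Rplp2 and Rpsa. This rule took 76 of 15803 genes, 46 of the large (60S) and 30 of the small (40S) subunit, and used no measured value. There were 3 WT libraries, from Hnrnpk fl/fl embryos, and 3 CKO libraries, from Col2a1-Cre;Hnrnpk fl/fl littermates, all from E18.5, shortly before birth. The loxP-flanked exons 4 to 7 were thus present in both genotypes until Cre acted. The study used male and female embryos without clearly identifying sex, and the sex behind each library is not given. In this model Cre is made under the Col2a1 promoter, mainly in chondrocytes, and other cells of the dissected cartilage keep Hnrnpk. Sequencing was of poly(A) RNA with a stranded kit, and the authors deposited CPM, the reads on a gene scaled to 1000000 reads on all listed genes of the library. Neither labels nor text tie a library to an embryo, so p-values measure only the spread between these libraries.

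Each ribosome carries a single copy of most of these proteins, built around the ribosomal RNAs, and dividing and matrix-secreting cells such as chondrocytes spend much of their mRNA on them. The proteins of the small subunit read the mRNA, and those of the large subunit surround the site where peptide bonds form and the tunnel through which the new chain leaves. Most of their mRNAs begin with a run of pyrimidines (the terminal oligopyrimidine or TOP element), through which mTOR signalling acts on their translation and stability together. When assembly fails, free Rpl5 and Rpl11 bind Mdm2, the inhibitor of p53.

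The 6 libraries held 1153871 to 1454094 reads on genes, recovered from the steps of the CPM values, and 3 reads were worth 2.06 to 2.60 CPM, a floor that covers counting error only. Values of single libraries are given in the order 1, 2 and 3 of each genotype. Hnrnpk itself was at 842, 955 and 944 CPM in WT, against 759, 949.9 and 780.0 CPM in CKO. The genotypes overlapped (log2 fold change -0.14 (SE 0.15, limma's adjusted p = 0.622)), reads on the deleted exons alone were not analysed here, and every direction below therefore rests on the labels. All 7 chondrocyte markers were present, with a summed level of 13601 to 17817 CPM in WT and 3527 to 4168 CPM in CKO. Markers of erythroid cells, endothelium and blood leukocytes summed to at most 28.9 CPM in any library, with Alas2, Kdr, Cd3e and Elane among the markers not listed. Markers of skeletal muscle summed to 29.3 to 127 CPM and those of macrophages and osteoclasts to at most 378 CPM, both highest in WT 3. WT 3 and CKO 2 stood apart from the other libraries of their genotype, and CKO 1 and CKO 3 were the most alike: the chi-square per degree of freedom of their counts was 1.29, against 2.06 for WT 1 with WT 2 and 8.65 to 14.2 for the other pairs within a genotype. Calls that change without them are named beside the gene.

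The start of a ribosomal protein mRNA is shown for 4 members, because the pyrimidine run there is the feature the family is known for. Each line gives 30 bases of RefSeq's GRCm38.p6 entry on the strand of the gene, 5′ to 3′, with the annotated start at base 16 and the run of C and T that covers it in capitals.
Rps6 (chr4:86857353-86857382, minus strand): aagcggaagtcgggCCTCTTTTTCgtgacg
Rpl35 (chr2:39005117-39005146, minus strand): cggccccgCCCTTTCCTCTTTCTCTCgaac
Rpl38 (chr11:114668565-114668594, plus strand): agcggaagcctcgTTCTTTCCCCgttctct
Rplp2 (chr7:141447636-141447665, plus strand): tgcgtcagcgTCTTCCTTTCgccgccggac
Of the 76 members, 56 had an entry. A run of at least 8 pyrimidines on the strand of the gene, between 30 bases before and 50 bases after an annotated start, was found in 45 of them (80.4%), against 32.3% of the 27025 genes with an entry. The median log2 fold change between CKO and WT was -0.23 over the members with such a run and -0.17 over the 11 without. Their quartiles were -0.37 to -0.041 and -0.18 to 0.018. No test was made of this difference.

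Reads on the 76 genes made up 20.2, 20.5 and 16.1% of WT 1, 2 and 3 and 15.1, 18.2 and 15.1% of CKO 1, 2 and 3. The mean share was 18.9 ± 2.46% (SD, n = 3) in WT and 16.1 ± 1.77% (SD, n = 3) in CKO. WT 1 and WT 2 were the highest, CKO 1 and CKO 3 the lowest, and the genotypes overlapped because CKO 2 lay above WT 3. The large subunit held 11.3, 11.5 and 9.05% in WT and 8.60, 10.2 and 8.60% in CKO. The small subunit held 8.89, 8.98 and 7.04% in WT and 6.54, 7.95 and 6.47% in CKO, with the same libraries at the top and the bottom. The ratio of the large to the small subunit was 1.27, 1.28 and 1.29 in WT and 1.31, 1.29 and 1.33 in CKO. These ratios overlapped at CKO 2, and their means of 1.28 ± 0.00967 and 1.31 ± 0.0222 (SD, n = 3) were 1.02 times apart. These are sums over chosen genes and were given no test. In bulk cartilage, fewer cells of a type and less RNA per cell cannot be told apart.

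**Figure D1:**
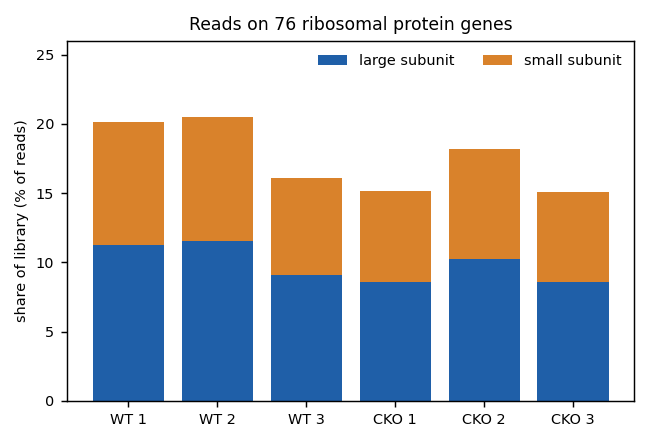
Share of the reads of each library (% of reads) that fell on the 76 ribosomal protein genes, with the large subunit below and the small subunit above in each bar, for the 3 WT and 3 CKO libraries. WT 3 (16.1%) and CKO 2 (18.2%) lie between the other WT and the other CKO libraries.

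This pattern was seen gene by gene. WT 1 lay above the 6-library mean of log2(CPM + 1) for 68 of the 76 members and WT 2 for 70, while WT 3 lay below it for 59. CKO 1 and CKO 3 lay below the mean for 67 and 67 members, while CKO 2 lay above it for 56. The median deviation over members was 0.18, 0.22 and -0.10 in WT 1, 2 and 3 and -0.19, 0.089 and -0.21 in CKO 1, 2 and 3 (log2). Most members thus lay high or low together from library to library, within genotypes as well as between them. Over all genes tested the median deviation stayed between -0.024 and 0.037.

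**Figure D2:**
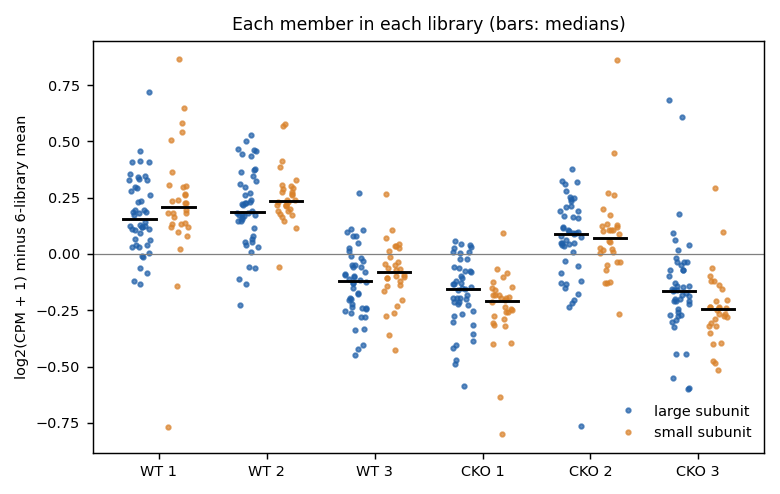
Deviation of each of the 76 members from its own mean over the 6 libraries, in log2(CPM + 1), by library and subunit, with black bars at the medians. The medians of WT 1 and WT 2 lie above 0 and those of CKO 1 and CKO 3 below, while WT 3 lies below and CKO 2 above.

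Summed markers of hypertrophic chondrocytes (4 of 4 markers listed: Col10a1, Ihh, Mmp13 and Pth1r) moved with this order. Their summed level was 329, 328 and 752 CPM in WT, against 2219, 444 and 2348 CPM in CKO, lowest in WT 1, WT 2 and CKO 2 and highest in CKO 1 and CKO 3. From the library with the lowest to that with the highest marker sum, the ribosomal protein share was lower at every step, over 6 libraries of which CKO 1 with CKO 3 and WT 1 with WT 2 lay close together. Osteoblast markers summed to 457, 520.1 and 691 CPM in WT, against 1276, 367 and 1369 CPM in CKO, and the 13 mitochondrially encoded mRNAs to 2019, 2191 and 2191 CPM in WT, against 2995, 1675 and 3110.4 CPM in CKO. For both, CKO 2 was the lowest of the 6 libraries and CKO 1 and CKO 3 were the highest. The summed chondrocyte markers did not follow the order of the shares, being highest in WT 3 (17817 CPM). The part of these cells and of RNA composition in the ribosomal protein values was not tested.

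**Figure D3:**
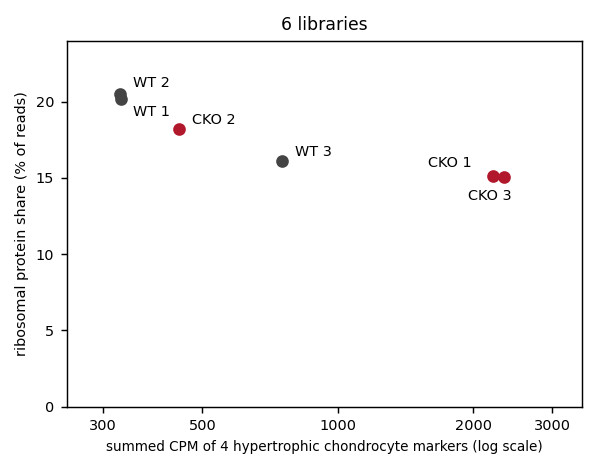
Ribosomal protein share (% of reads, vertical axis from 0) against the summed CPM of 4 hypertrophic chondrocyte markers (log scale) in each of the 6 libraries, WT in grey and CKO in red. The library with the highest share, WT 2 (20.5%), has the lowest marker sum, and CKO 3 (15.1%) has the highest.

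Between the genotypes the members differed by small amounts, mostly downward. All 76 passed the filter of a mean of at least 1 CPM and were tested with limma among 12155 genes. The log2 fold change of CKO against WT was below 0 for 62 of 76 members, against 49.2% of all genes tested, and for 56 of the 68 members with a mean of at least 100 CPM, against 43.6% of the 1658 genes at that level. The median was -0.20 over members and 0.013 over all genes tested. With limma's adjusted p under 0.05, 3 members were lower, among them Rpl10 and Rps20, against 2.60% of all genes, which is near the share of 3 in 76. No member was higher (0 of 76 by limma or DESeq2 and 0 of 74 by edgeR, against 3.18% of all genes by limma). At an unadjusted p under 0.05, 14 members were lower (10.1% of all genes) and 1, Rpl17, was higher (11.2%). Every CKO library lay below every WT library for 14 members, against 13.2% of all genes, and above for 3, against 14.5%. Among members with a mean of at least 100 CPM the first count was 13 of 68, against 18.1% of genes at that level. The study called a gene at a log2 fold change past 1 or -1 and an unadjusted p under 0.05, and by that criterion 0 members passed in either direction with limma, against 5.10% of all genes lower and 5.30% higher.

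Single libraries decided how many members were called. Without CKO 2, 12 members were lower past the adjusted threshold, among them Rps12, Rps19, Rpl13 and Rpl13a, against 5.03% of the genes tested. Without WT 3 there were 7, against 1.82%. These fits left only the most alike libraries of a genotype, CKO 1 with CKO 3 or WT 1 with WT 2. Calls without CKO 2 or WT 3, here and below, rest partly on the small spread of such a pair. Over all genes, 606 of 12055 were called lower without CKO 2, against 316 of 12155 with all libraries. Without WT 1, WT 2, CKO 1 or CKO 3, each in turn, 0 members were called by limma in either direction, against 0.666, 0.650, 1.03 and 0.886% of all genes called lower, and the median over members was between -0.17 and -0.15. With CKO 1 and CKO 3 averaged into 1 library, an alternative chosen after the data were seen, 58 members stayed below 0, 0 were called (against 0.987% of all genes lower) and the median was -0.16. With every gene scaled to the summed CPM of the members, also chosen after the data were seen and holding their sum equal in every library, 37 members lay below 0 and 39 above, with 0 called (against 0.862% of all genes lower). The median of all genes tested was then 0.21.

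**Figure D4:**
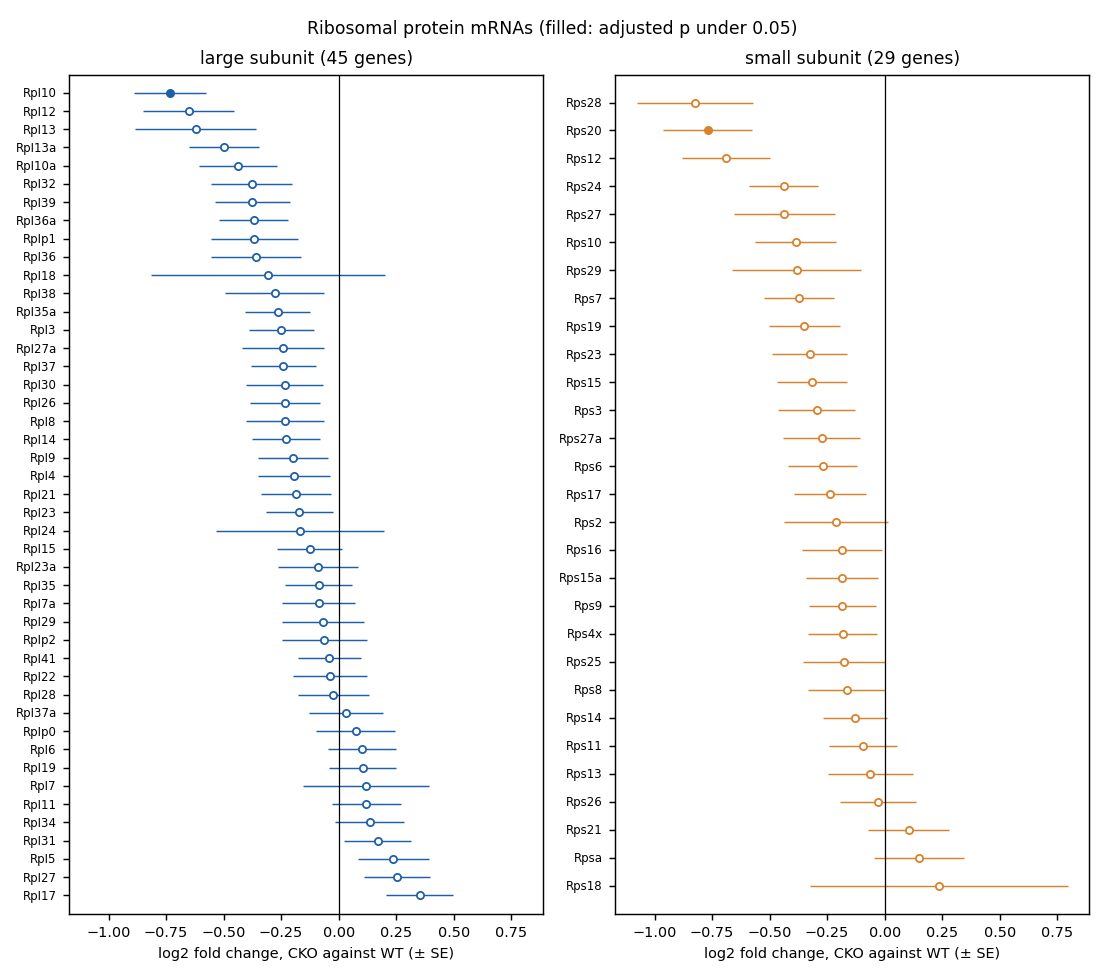
Log2 fold change of CKO against WT with its standard error from limma for 45 large (left) and 29 small subunit genes (right), ordered by value, filled where the adjusted p was under 0.05. Rpl10 and Rps20 are filled, 34 of 45 large and 26 of 29 small subunit points lie left of 0, and the widest bars belong to Rps18 and Rpl18, which had few reads.

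Among large subunit genes, 35 of 46 were below 0, with a median of -0.19, and 2 were called. In the small subunit 27 of 30 were below 0, with a median of -0.25, and 1 was called. Over all genes tested 2.60% were called lower. The quartiles were -0.30 to -0.026 and -0.37 to -0.17. Without CKO 2, 5 large and 7 small subunit genes were called, and without WT 3 5 and 2, against the shares of all genes given above. The difference between subunits was given no test.

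Rpl10, which joins the large subunit late and lies beside the site of peptide bond formation, was the most strongly called member (ENSMUSG00000008682; GRCm38 chromosome X, 74270812 to 74273135, plus strand). Its level was 5351, 5620.1 and 4204 CPM in WT, against 2914, 3311 and 2865 CPM in CKO. Every CKO library lay below every WT library, by a wide gap, and the means were 5058 ± 752 CPM (SD, n = 3) and 3029.9 ± 244 CPM (SD, n = 3). The log2 fold change was -0.73 (SE 0.16, limma's adjusted p = 0.0245), and leaving out single libraries kept it between -0.86 and -0.65. The processed copy Rpl10-ps3, which has its own row, stood at 97.8, 104 and 56.6 CPM in WT, against 54.3, 57.7 and 41.6 CPM in CKO, a small part of the level of Rpl10.

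Rps20, a protein of the head of the small subunit (ENSMUSG00000028234; GRCm38 chromosome 4, 3831334 to 3835665, minus strand), was at 1639, 1553 and 1002 CPM in WT, against 792, 869 and 748 CPM in CKO. WT 3 lay well below the other WT libraries but above all CKO libraries. The log2 fold change was -0.77 (SE 0.19, limma's adjusted p = 0.0447), between -0.99 and -0.64 with single libraries left out. Rpl10 and Rps20 both lost the call without WT 1, WT 2, CKO 1 or CKO 3, and the adjusted p over all alternatives (limma, edgeR and DESeq2) ranged from 0.00270 to 0.369 for Rpl10 and from 0.00585 to 0.424 for Rps20. The annotation holds 17 and 5 near-identical copies of Rpl10 and Rps20, matched by BLAST over 150 bp or more at 90% identity or above, and reads may be shared with them.

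The other members among the 5 lowest did not pass the test with limma on all libraries. Without CKO 2 each of them was called, and Rps12 also without WT 3 and with DESeq2. Rps28, a small protein of the head near the exit of the mRNA, was at 91.3, 61.5 and 52.4 CPM in WT, against 31.6, 45.5 and 35.5 CPM in CKO. Its log2 fold change was -0.83 (SE 0.25, limma's adjusted p = 0.0861). Rps12, at the beak of the small subunit, was at 2583, 2708 and 1754 CPM in WT, against 1382, 1667 and 1272 CPM in CKO. Its log2 fold change was -0.69 (SE 0.19, limma's adjusted p = 0.0632). Rpl12, which forms the base of the stalk where translation factors bind, was at 798, 825 and 647 CPM in WT, against 433, 639 and 396 CPM in CKO. Its log2 fold change was -0.65 (SE 0.20, limma's adjusted p = 0.0847). The genotypes overlapped for none of these 3, with WT 3 and CKO 2 next to each other in each case. The pseudogene row Rps12-ps3, chosen after its values were seen, lay lower in every CKO library as Rps12 did, at 153, 167 and 120.0 CPM in WT, against 85.96, 93.1 and 84.1 CPM in CKO. Its log2 fold change was -0.72 (SE 0.18, limma's adjusted p = 0.0436), and reads may be split between the pair. It was no longer called without WT 1, WT 2, CKO 1 or CKO 3, each left out in turn. Among the 14 proteins of the head of the small subunit, 13 were below 0, against 62 of all 76 members, and the median was -0.33. Of the 14, 1 was called (Rps20), against 2.60% of all genes called lower. Without CKO 2, 5 of these were called, against 5.03% of all genes.

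The proteins of the 5S particle had values above 0. Rpl5 was at 716, 709.9 and 725 CPM in WT, against 804, 1013 and 742 CPM in CKO, and its partner Rpl11 at 2841, 2976 and 2454 CPM in WT, against 2879, 3397 and 2727 CPM in CKO. For Rpl5 every CKO library lay above every WT library, while Rpl11 overlapped. Neither passed the test, with a log2 fold change of 0.24 (SE 0.15, limma's adjusted p = 0.408) for Rpl5 and 0.12 (SE 0.15, limma's adjusted p = 0.694) for Rpl11. Relative to the summed members the values were 0.46 and 0.35, with adjusted p = 0.154 and adjusted p = 0.173 from limma.

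Rpl17, Rpl27 and Rpl31 were among the 5 highest members. Rpl17, at the mouth of the tunnel, was at 1224, 1286 and 1063 CPM in WT, against 1369.9, 1673 and 1518 CPM in CKO, and no library overlapped. Rpl17 had a log2 fold change of 0.35 (SE 0.15, limma's adjusted p = 0.198). Rpl27, also of the large subunit, was at 2019, 2053 and 1819.7 CPM in WT, against 2146, 2657 and 2236 CPM in CKO, without overlap. Rpl27 had a log2 fold change of 0.25 (SE 0.14, limma's adjusted p = 0.344). Rpl31, another protein of the tunnel mouth, was at 1082, 1094 and 912 CPM in WT, against 1131, 1283 and 1061 CPM in CKO and overlapped. Rpl31 had a log2 fold change of 0.17 (SE 0.15, limma's adjusted p = 0.553). Rps18 belongs to the 5 highest by its fitted value of 0.24 (SE 0.56), but it held only 1 to 6 reads per library and gives no direction. Over the 9 proteins listed for the tunnel, 6 were below 0 and 3 above, with a median of -0.087 that turned to 0.024 without WT 2. Rpl39, which lines the tunnel wall, was among the lower ones, at 266, 292 and 222 CPM in WT, against 215, 195 and 188 CPM in CKO. Its genotypes did not overlap, and the log2 fold change was -0.37 (SE 0.16, limma's adjusted p = 0.212).

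The P stalk, which recruits the GTPases of elongation, is made of 3 members. Rplp1 was at 7756, 8549 and 5222 CPM in WT, against 5597, 5635 and 5132 CPM in CKO, with the lowest WT library within the CKO range. Its log2 fold change was -0.37 (SE 0.19, limma's adjusted p = 0.299), and without WT 3 it was called. Rplp2 was at 4126, 3766 and 2703 CPM in WT, against 3111, 3888 and 3051 CPM in CKO, and Rplp0, the anchor of the stalk, at 729.9, 750.4 and 506 CPM in WT, against 687, 686 and 687 CPM in CKO. Both overlapped, with WT 3 the lowest of the 6 libraries. Without WT 3 the log2 fold change of Rplp0 turned to -0.11. With all libraries, Rplp2 and Rplp0 had log2 fold changes of -0.062 (SE 0.19, limma's adjusted p = 0.884) and 0.075 (SE 0.17, limma's adjusted p = 0.847).

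Members known for skeletal phenotypes were below 0 in 4 of 4 cases, against 62 of all 76 members. None was called (0 by limma, edgeR and DESeq2), against 2.60% of all genes called lower by limma. At an unadjusted p under 0.05, 1 was lower, against 10.1% of all genes. Rpl13, altered in a human spondyloepimetaphyseal dysplasia, was at 4429, 3370.3 and 2485 CPM in WT, against 1790.1, 3205 and 1779 CPM in CKO, and CKO 2 lay among the WT libraries. Its log2 fold change was -0.62 (SE 0.26, limma's adjusted p = 0.206), and without CKO 2 it passed the adjusted threshold. Rpl38, which is disrupted in the Tail short mouse and shapes the axial skeleton, was at 55.1, 66.04 and 56.6 CPM in WT, against 37.8, 57.02 and 52.9 CPM in CKO. For Rpl38 the log2 fold change was -0.28 (SE 0.22, limma's adjusted p = 0.502). Rpl29, whose loss makes mice small, was at 1345, 1395 and 1067 CPM in WT, against 1076, 1492 and 1082 CPM in CKO. This gave a log2 fold change of -0.068 (SE 0.18, limma's adjusted p = 0.864), which turned above 0 without WT 2, CKO 1 or CKO 3. Rpl24, mutated in the Belly spot and tail mouse, was at only 13.8, 17.3 and 8.45 CPM in WT, against 11.7, 15.2 and 7.80 CPM in CKO. The log2 fold change was -0.17 (SE 0.36, limma's adjusted p = 0.838), above 0 without WT 2 or CKO 3, and 46.99% of its exonic bases lie in another gene on the same strand. The interval of the difference was -0.76 to 0.20 for Rpl38 and -0.46 to 0.32 for Rpl29 (95%, log2).

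Of the 18 members linked to Diamond-Blackfan anaemia, a failure of red cell formation with skeletal defects in some patients, 14 were below 0 with a median of -0.25. Over all members 62 of 76 were below 0. With all libraries 0 of the 18 were called by limma or DESeq2 and 0 of 17 by edgeR, against 2.60% of all genes lower by limma. At an unadjusted p under 0.05, 4 were lower, against 10.1% of all genes. Without CKO 2, 4 were called lower, against 5.03% of all genes. Rps19, the gene most often affected, was at 9109, 8638 and 7299 CPM in WT, against 6028, 7387 and 6247 CPM in CKO. Rps19 had a log2 fold change of -0.35 (SE 0.15, limma's adjusted p = 0.222). Only WT 3 reached into the CKO range, and without CKO 2 Rps19 was called. Rps6, the substrate of S6 kinase, was at 6292, 6339.8 and 5685 CPM in WT, against 4644, 5906 and 4722 CPM in CKO. Rps6 had a log2 fold change of -0.27 (SE 0.15, limma's adjusted p = 0.332). Rpsa, also known as the laminin receptor, was at 518, 553 and 397 CPM in WT, against 475, 696 and 469.7 CPM in CKO, with CKO 2 the highest of all. Rpsa had a log2 fold change of 0.15 (SE 0.20, limma's adjusted p = 0.714), which turned below 0 without CKO 2. Rps27a, made as a fusion with ubiquitin, was at 5169, 5273 and 4106 CPM in WT, against 3699, 4764 and 3591 CPM in CKO. For Rps27a the log2 fold change was -0.27 (SE 0.17, limma's adjusted p = 0.379).

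Rpl10a, a protein of the L1 stalk that lets spent tRNA leave, was at 3078, 3299 and 2223 CPM in WT, against 2036, 2223 and 2005 CPM in CKO. WT 3 and CKO 2 lay almost level. Rpl10a had a log2 fold change of -0.44 (SE 0.17, limma's adjusted p = 0.170) and was called without WT 3. Rpl41, the smallest ribosomal protein, was at 2701, 2537 and 2340.0 CPM in WT, against 2311, 2653 and 2404 CPM in CKO, with a log2 fold change of -0.041 (SE 0.14, limma's adjusted p = 0.899) and an interval of -0.34 to 0.26. On the X chromosome lie 4 members, with log2 fold changes below 0 for each, as for 62 of all 76 members. Besides Rpl10 and Rpl39 these were Rpl36a and Rps4x. Rpl36a was at 1528, 1685 and 1244 CPM in WT, against 1143, 1126 and 1156 CPM in CKO, with a log2 fold change of -0.37 (SE 0.15, limma's adjusted p = 0.190). Rps4x was at 2082, 2149 and 1852 CPM in WT, against 1651, 2085 and 1646 CPM in CKO, with a log2 fold change of -0.18 (SE 0.15, limma's adjusted p = 0.529). Rpl36a did not overlap between genotypes, whereas for Rps4x CKO 2 lay within the WT range.

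Between genes, levels were compared as CPM per kb of the principal GENCODE transcript. The 5 highest members were Rplp1 with 14381 ± 3482 in WT and 10931 ± 561 in CKO (CPM per kb, mean ± SD, n = 3), Rpl32 with 13770.0 ± 2339.9 in WT and 10553 ± 1523 in CKO, Rps19 with 13189 ± 1483 in WT and 10354 ± 1153 in CKO, Rps14 with 9739.8 ± 968 in WT and 8882 ± 115 in CKO and Rpl26 with 9102 ± 926 in WT and 7754 ± 911 in CKO. The first 3 did not differ from each other beyond their spread. In CPM, Rpl32 was at 7768, 7866 and 5723 CPM in WT, against 4965, 6364 and 5039 CPM in CKO, with a log2 fold change of -0.38 (SE 0.17, limma's adjusted p = 0.244). Rps14, lost in a myelodysplastic syndrome, was at 6025, 6258 and 5161 CPM in WT, against 5229, 5366 and 5313 CPM in CKO, with a log2 fold change of -0.13 (SE 0.14, limma's adjusted p = 0.646). Rpl26 was at 5008, 5126 and 4229 CPM in WT, against 3798, 4632 and 3805 CPM in CKO, with a log2 fold change of -0.23 (SE 0.15, limma's adjusted p = 0.412). None of these differences passed the test. At the other end, 8 members had a mean under 100 CPM, among them Rps18, Rpl18, Rps29 and Rpl24, and together they held 0.0329% of the reads in WT. Near-identical copies were annotated for all but 2 members, among them Rpl8, with a median of 12 copies and at most 160. A copy was counted from a BLAST match on any part of the transcript, so it need not be a copy of the whole gene. For Rps16, which had the 160, 112 of the matched genes had rows of their own. How reads that map to several places were counted is not given in the sources used here. The order of levels between genes, at its high and low ends, may therefore not be that of their mRNAs. The 18 members with at most 5 copies had a median log2 fold change of -0.23, and those with more had -0.19.

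Among paralogs outside the rule, Rpl22l1 and Rps27l were called. Rpl22l1, which can take the place of Rpl22 in the large subunit, was at 1231, 1189 and 1394 CPM in WT, against 371, 580.3 and 371 CPM in CKO (ENSMUSG00000039221; GRCm38 chromosome 3, 28805436 to 28807424, plus strand). The 3 WT libraries lay close together, and all CKO libraries lay far below them with CKO 2 the highest of these. The log2 fold change was -1.56 (SE 0.19, limma's adjusted p = 0.00225). Rpl22l1 kept the call with CKO 1 and CKO 3 averaged, and lost it with WT 1 and WT 2 averaged as well. Rpl22 itself was at 1778, 1819 and 1342 CPM in WT, against 1525, 1749.6 and 1503 CPM in CKO and overlapped (log2 fold change -0.038 (SE 0.16, limma's adjusted p = 0.921)). Their coding parts share 70.2% of 366 aligned bases and 73.8% of residues. A stretch of both (GENCODE M21, counted from the A of the start codon) shows how far they can be told apart by reads, with bases of Rpl22l1 that differ in capitals.
Rpl22, coding bases 181 to 240: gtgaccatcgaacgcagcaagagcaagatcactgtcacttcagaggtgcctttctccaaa
Rpl22l1, coding bases 163 to 222: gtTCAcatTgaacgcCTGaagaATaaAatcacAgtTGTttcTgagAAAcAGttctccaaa
In this stretch 20 bases differ, and BLAST found no near-identical match between the pair.

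Rps27l, known as a gene that p53 induces, was at 1427, 1477 and 956 CPM in WT, against 2374, 2479 and 2347 CPM in CKO (ENSMUSG00000036781; GRCm38 chromosome 9, 66946086 to 66949516, plus strand), higher in every CKO library, and its log2 fold change was 0.92 (SE 0.18, limma's adjusted p = 0.0160). Without WT 1, CKO 1 or CKO 3, or with CKO 1 and CKO 3 averaged, it was no longer called. Rps27 was at 124, 94.6 and 76.03 CPM in WT, against 68.1, 83.7 and 62.4 CPM in CKO, with a log2 fold change of -0.44 (SE 0.22, limma's adjusted p = 0.286). Rps27rt, a retrogene copy, was at 42.8, 37.5 and 26.2 CPM in WT, against 17.2, 20.9 and 12.1 CPM in CKO, with a log2 fold change of -1.04 (SE 0.29, limma's adjusted p = 0.0635). Without CKO 2 Rps27rt was called. In CPM per kb Rps27l reached 2579 ± 576 in WT and 4809 ± 139 in CKO, against 285 ± 70.03 in WT and 207 ± 32.01 in CKO for Rps27. The annotation holds 10 near-identical copies of Rps27 and 5 of Rps27l. How shared reads were counted is not known, so these levels may not rank the pair. The coding part of Rps27rt is identical to that of Rps27 over all 252 bases, and reads of the 2 genes cannot be told apart there. Rps27l differs at 60 bases but at only 3 of 84 residues. The first bases of the coding parts show this, with differences from Rps27 in capitals.
Rps27, coding bases 1 to 60: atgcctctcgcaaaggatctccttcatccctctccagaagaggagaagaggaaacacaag
Rps27l, coding bases 1 to 60: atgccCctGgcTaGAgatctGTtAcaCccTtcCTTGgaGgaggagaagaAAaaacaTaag
Rps27rt, coding bases 1 to 60: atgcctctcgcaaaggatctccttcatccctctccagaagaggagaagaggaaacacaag
Of the 12 ribosomal proteins listed outside the rule, 9 were tested, with a median of 0.11. Of these, 1 was called higher, against 3.18% of all genes, and 1 lower, against 2.60%. Rps3a1, a small subunit protein that neither the rule nor this list held and that was chosen after its values were seen, was at 4882, 4893 and 4113 CPM in WT, against 3675, 4666 and 3571 CPM in CKO, with a log2 fold change of -0.23 (SE 0.16, limma's adjusted p = 0.446).

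**Figure D5:**
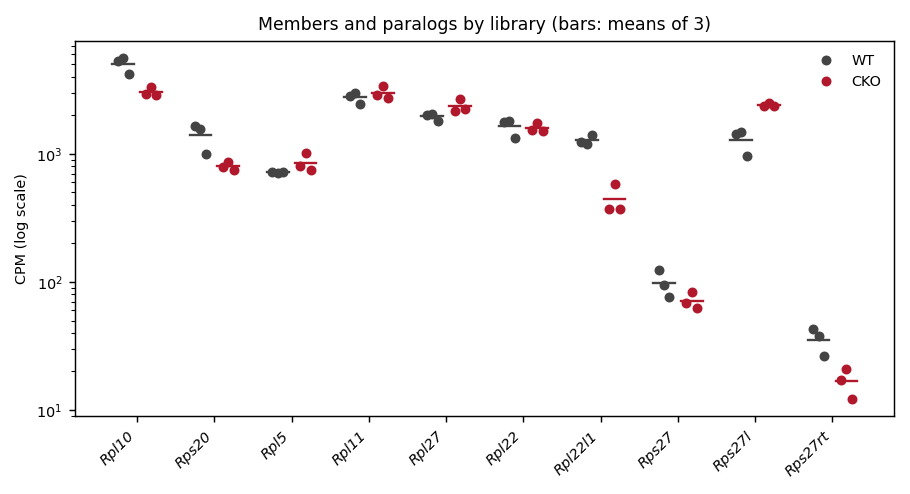
CPM (log scale) of called and other members and of paralogs outside the rule in each library, with WT in grey, CKO in red and bars at the means of 3. Rpl10 and Rps20 are lower in every CKO library, Rpl5 and Rpl27 higher, and Rpl22l1 and Rps27l are separated more widely than Rpl22 and Rps27.

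Lists of the surrounding pathway were counted in the same way. Of 21 tested translation factors and other mRNAs with a TOP element, 13 were above 0 and 8 below, with a median of 0.18. In this list 2 were called lower, against 2.60% of all genes. Eef2, the elongation factor of translocation, was at 3682, 3654 and 3109 CPM in WT, against 2391, 2276 and 2418 CPM in CKO, with a log2 fold change of -0.56 (SE 0.14, limma's adjusted p = 0.0424). Tpt1, a growth-related protein, was at 7433, 6043 and 5458 CPM in WT, against 2935, 4171 and 2764 CPM in CKO, with a log2 fold change of -0.95 (SE 0.19, limma's adjusted p = 0.0190). Both lost the call without WT 1, WT 2, CKO 1 or CKO 3, each left out in turn. With all libraries none was called higher by limma, edgeR or DESeq2. At an unadjusted p under 0.05, 3 were higher, against 11.2% of all genes, and 4 lower, against 10.1%. With edgeR, which tested 19 of the 21 genes, Eef1b2 was called lower as well. Without CKO 2 the counts were 2 higher and 3 lower, against 5.74% and 5.03% of all genes, the additional genes being Vim and Eef1d (higher) and Eef1b2 (lower), and the median was 0.014. Of 19 tested regulators of ribosomal protein synthesis (the mTOR and Myc pathways among them), 0 were called by limma or DESeq2, and the median by limma was 0.068. With edgeR 14 of the regulators were tested and 0 called. Several regulators were near the floor of 3 reads in some libraries. At an unadjusted p under 0.05, 2 of the regulators were lower, against 10.1% of all genes, and 0 higher, against 11.2%. Genes named for a call in one alternative were chosen after their values were seen. The median of the regulators was 0.049 with DESeq2 and -0.048 with edgeR, over its 14 genes. It turned to -0.15 without CKO 2, -0.18 without WT 1 and -0.029 without WT 2, and without CKO 2 1 gene, Eif4ebp2, was called lower. Of 21 chaperones and assembly factors, 16 were above 0 with a median of 0.39, and 1 was called higher, against 3.18% of all genes. Without CKO 2 Ltv1 was called lower, and the median was 0.17. The gene called with all libraries was Sbds, which prepares the large subunit for joining, at 81.9, 107 and 86.2 CPM in WT, against 229.7, 179.7 and 220.1 CPM in CKO (log2 fold change 1.19 (SE 0.18, limma's adjusted p = 0.00510)).

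In the list of nucleolar stress and p53, 12 of 15 tested genes were above 0 and 3 below. By limma 7 were called higher, against 3.18% of all genes, and 0 lower. The 3 below 0, named after their values were seen, were Sesn1, Mdm4 (-0.28) and Bbc3 (-0.25). Sesn1 was lower in every CKO library, with a log2 fold change of -1.02 (SE 0.32, limma's adjusted p = 0.0965). With single libraries left out 5 to 7 were called higher, and with all libraries the median log2 fold change was 0.88. The mRNA of Mdm2, the inhibitor of p53, was at 53.6, 52.5 and 41.4 CPM in WT, against 168, 133 and 206 CPM in CKO, with a log2 fold change of 1.75 (SE 0.21, limma's adjusted p = 0.00196). The cell cycle inhibitor Cdkn1a rose by 2.13, Eda2r by 2.19, Plk2 by 1.85 and Ccng1 by 1.63 on the log2 scale. Gdf15 rose by 1.09 and the cell death gene Bax by 0.88. For these genes limma's adjusted p was between 0.00130 and 0.0425. The study also reported higher Cdkn1a and Bax mRNA in E18.5 CKO cartilage. Whether nucleolar stress or ribosomal proteins had a part in the values of this list was not tested. Eda2r held only 7, 5 and 3 reads in WT, near the floor of 3 reads, against 28, 28 and 25 reads in CKO. Each of the 7 called genes, Mdm2 included, was higher in every CKO library than in any WT library, which their choice by the call favours. Over the 15 genes, every CKO library lay above every WT library for 9, against 14.5% of all genes, and below for 1, against 13.2%. With single libraries left out, Mdm2, Cdkn1a, Eda2r and Ccng1 kept the call each time. Plk2 lost it without WT 1, Bax without WT 2, CKO 1 or CKO 3, and Gdf15 without WT 1, WT 2, CKO 1 or CKO 3. With CKO 1 and CKO 3, the most alike, averaged into 1 library, 5 genes of the list were called higher, among 139 of 12158 genes. With WT 1 and WT 2 averaged as well, 0 of the list were called, where 5 genes in all were higher.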

How the data were processed

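Growth plate cartilage of 3 WT and 3 CKO libraries was profiled by stranded sequencing of poly(A) RNA. The submitters' processing notes name cutadapt 2.5, HISAT2 and featureCounts 1.6.3. The genome build, the annotation and the treatment of reads that map to several places are not given in the sources used here. The authors deposited 1 table of CPM, in which each library sums to 1000000 and the values were computed from whole reads per gene. Per the deposited values, 100.0% came out as whole reads (tolerance 0.01) once divided by the step of their library, which gave 1153871 to 1454094 reads per library, and 3 reads were taken as the floor.

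Genotypes were taken from the labels. The test took genes averaging 1 CPM or more, which were fitted on log2(CPM + 1) with limma 3.58.1 in R 4.3.3, with a mean-variance trend, and p was adjusted by the Benjamini-Hochberg method over 12155 genes. A gene was called at an adjusted p under 0.05. Fold changes are on the log2(CPM + 1) scale, on which changes of rarely read genes come out too small. On the recovered reads, edgeR 4.0.16 (quasi-likelihood test) and DESeq2 1.42.0 were run as alternatives, and the tests were checked on simulated data. Further alternatives were a pseudocount of 0.1 CPM, no filter, TMM scaling, the replicate number as a block and each library left out in turn. Sums and medians over members were given no test.

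The genes named are the members called, the 5 highest and 5 lowest by fold change, the 5 highest per kb, members with a described role (P stalk, 5S particle, skeletal phenotypes, X linkage and single others), and the called genes of the pathway lists with Mdm2. The members and lists were chosen with earlier results of these data known. Coordinates, transcripts and coding sequences are from GENCODE M21 (GRCm38), matched by the gene identifiers of the table, and starts are from RefSeq's GRCm38.p6 table. Copies were sought by BLAST among the annotated transcripts, at 90% identity or above over at least 150 bp of any part of the transcript. A few genes that fall under the rules are not reported here.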

Additional observations from a re-analysis of the deposited data

How the results depend on the processing

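The number of members called lower was 3 with limma, with TMM scaling and with edgeR (74 members tested), 4 with DESeq2, and 2 with a pseudocount of 0.1 CPM or with no filter. It was 0 by the criterion of the study, with scaling to the members, with CKO 1 and CKO 3 averaged, and with WT 1 and WT 2 averaged as well, where 5 genes in all were higher and 6 lower, against 387 and 316 with 6 libraries. Scaling to the members and averaging were chosen after the data were seen. Leaving out single libraries gave 0 to 12 members called lower. No member was called higher under these alternatives. The same replicate numbers correlated at 0.038, -0.13 and -0.10 between genotypes, so the numbers were not taken as pairs. With a replicate block 2 members were lower and 0 higher, the median stayed at -0.20, and 225 genes were higher and 160 lower. Scaled to the members, the medians were 0.022 over members, 0.037 over the large and -0.026 over the small subunit, and 491 genes were higher and 105 lower. The summed share of CKO minus WT, -2.79 percentage points, was -0.0890 over the 2 members with no near-identical copy and -0.591 over those with at most 5, by construction fewer genes. The difference in the ratio of large to small subunit, 0.0303, was 0.125 and 0.00353 over the same sets. Scaled to the members, log2 fold changes turned to 0.044 for Rpl24, 0.16 for Rpl29, 0.19 for Rpl41, 0.17 for Rplp2, 0.099 for Rps14, 0.044 for Rps4x, 0.19 for Rpl22 and 0.083 for Hnrnpk. With CKO 1 and CKO 3 averaged, Rpl29 turned to 0.0097. With WT 1 and WT 2 averaged as well, Rpl24 turned to 0.077, Rpl29 to 0.070, Rpl41 to 0.015, Rplp2 to 0.084 and Rpl22 to 0.067. With single libraries left out the range was -0.43 to 0.068 for Rpl24, -0.22 to 0.012 for Rpl29, -0.098 to 0.0090 for Rpl41, -0.11 to 0.18 for Rplp0, -0.24 to 0.062 for Rplp2, -0.13 to 0.69 for Rps18, -0.037 to 0.25 for Rpsa and -0.18 to 0.041 for Rpl22. The cause of these turns was not tested. Over the named genes, 697 values under an alternative kept direction and call, 75 kept the direction and lost the call, 10 gained it and 30 turned in direction. With 3 libraries a genotype and just over 1000000 reads each, members with few reads, such as Rps18, Rpl18 and Rpl24, gave wide intervals.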
